A study of Homo sapiens with 3 samples.

Results

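The enzymes that make, desaturate, elongate and activate long-chain fatty acids were followed through 3 populations of 1205Lu, an established human melanoma line. They are ACLY, ACACA, FASN, SCD, FADS1, FADS2, ELOVL5, ELOVL6, ACSL1 and ACSL3, chosen by name, and 17 probes on the array carry those names, of 30982 gene names printed. The original monolayer (OM) was grown in RPMI-1640 with 10% fetal calf serum (FCS). Melanoma bodies (MB), spheroids that stay attached to the plate and were collected by physical detachment, formed in hESC medium, a DMEM/F-12 base in which KnockOut Serum Replacement, at 20%, stood in for serum. The new monolayer (NM) grew out when MBs were put back into RPMI-1640 with 10% FCS for 10 days, and remaining MBs were removed from it. The first culture medium was kept for 14 days in each case. All 3 populations carry the genotype of the one line, and no gene was altered in any of them. Growth form and medium changed together, so their effects cannot be told apart.

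Total RNA of each population was labelled with Cy3 and hybridised to 1 Agilent 4 × 44K array per population, with all 3 arrays on 1 slide. There were no replicates, so no test across samples was possible. The interval given beside each ratio is the 95% range of the scanner software's own error model, close to 10% of the signal per spot; it covers the spots and leaves out the spread between cultures. In probes printed in 10 spots the SD of a log2 ratio was 0.08, which corresponds to 1.05-fold. Levels are processed signals in arbitrary units (a.u.) before scaling, and ratios were taken between arrays scaled to 3 housekeeping genes (GAPDH, ACTB and HSP90AA1). Between 26516 and 29125 of 41000 probes were well above background on an array. Of 8 markers of the melanocyte lineage, SOX10, S100B, S100A1, MITF, PMEL and DCT were well above background in all 3 populations. PMEL, between 209 and 286 a.u., and DCT, between 62.8 and 66.7 a.u., were dim. MLANA was well above background in OM and MB only, at 31.3 and 39.5 a.u. TYR, which encodes tyrosinase, was not above background in any. Markers of other cell types gave a mixed picture. Of 7 adipocyte markers, LEP, PLIN1 and FABP4 stayed near background throughout and 4 (ADIPOQ, CIDEC, LIPE and PPARG) were well above it on all 3 arrays, with a summed signal of 2612 a.u. in OM, 2542 a.u. in MB and 3439 a.u. in NM. Of 4 hepatocyte markers, APOB and TTR were not, SERPINA1 was on all 3 and ALB in OM, with a summed signal between 124 and 251 a.u. Of 5 fibroblast markers, COL1A1, COL1A2 and LUM were not, PDGFRB was on all 3 and DCN in MB, with sums between 1284 and 2790 a.u. Of 4 keratinocyte markers, KRT5 and KRT1 were not and KRT14 and KRT10 were, with sums between 32779 and 39764 a.u. Of 4 leukocyte markers, PTPRC was not and CD68, CD3E and CD14 were, with sums of 4900.0 a.u. in OM, 1885 a.u. in MB and 5096 a.u. in NM, nearly all of it CD68. The part of such cells in the results was not tested. In bulk RNA of this kind, fewer expressing cells and less RNA per cell cannot be told apart.

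Fatty acid synthesis starts from citrate that leaves the mitochondrion. ACLY splits it to acetyl-CoA, ACACA carboxylates that to malonyl-CoA, and FASN joins the units into palmitate. ELOVL6 lengthens palmitate to stearate, SCD inserts the double bond that gives palmitoleate and oleate, and FADS2, ELOVL5 and FADS1 work in turn on the polyunsaturated acids taken from outside the cell. ACSL1 and ACSL3 couple long-chain fatty acids to CoA, without which they enter neither membrane lipids nor oxidation. Transcription of most of these genes is driven by the sterol regulatory element-binding proteins (SREBPs), encoded by SREBF1 and SREBF2.

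In MB, the enzymes were on the whole modestly higher than in either monolayer. On the brightest probe of each gene, 8 of 10 were higher in MB than in OM and 9 of 10 higher than in NM, and the median log2 ratio was 0.63 (1.55-fold) over OM and 0.57 (1.49-fold) over NM. Over all 22406 measured genes the medians were 0.08 and 0.05, and 56.5% and 52.7% of genes were higher. No member passed 2-fold higher than OM, against 5.38% of all genes and 4.23% of those with a mean signal above 1000 a.u. FASN alone passed 2-fold over NM, against 10.9% and 8.31%. None was 2-fold lower in NM than in OM, against 4.68% and 2.13%. By these counts the members did not stand out from the background. Against the error range, a rule added after the values were seen, 7 of 10 were higher in MB than in OM (ACLY, ACACA, FASN, SCD, FADS1, FADS2 and ACSL1), where 25.1% of all genes and 24.8% of bright genes were. ACSL3 was lower, as were 16.1% of all genes. Over NM, 6 of 10 were higher (the same names without SCD), where 28.0% of all genes and 26.7% of bright genes were. Both comparisons use the 1 MB array. Scaling to spike-in probes left 4 of 10 past the range over OM (SCD, FADS1, FADS2 and ACSL1), beside 12.2% of all genes. The dimmest probe of each gene left 3 over NM (ACLY, FASN and ACSL1), beside 28.3%. Those 3 have a single probe, so the choice of probe could not change them. ACACA, FADS1 and FADS2 each fell within the range on their other probe. Between the monolayers, SCD was higher in NM, as were 20.8% of all genes, and FASN and ACSL3 were lower, as were 16.3%; the median over the members was 0.10. The 10 genes were listed by name, but with earlier results of these arrays known, so the counts describe them and are no test.

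The step that supplies acetyl-CoA was higher in MB than in both monolayers. ACLY (probe at chr17:37277522-37277582 of hg17, minus strand) gave 6308 a.u. in OM, 9037 a.u. in MB and 5056 a.u. in NM. MB stood above both monolayers, and the monolayers lay close together. The ratio of MB over OM was 1.47-fold (1.11 to 1.93), that of MB over NM was 1.60-fold (1.22 to 2.12), and that of NM over OM was 0.914-fold (0.692 to 1.21), which lies within the error range.

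ACACA, the carboxylase that makes malonyl-CoA, was dim. Its brighter probe (chr17:32518487-32520044, hg17, minus strand) gave 147 a.u. in OM, 213 a.u. in MB and 133 a.u. in NM, so that MB was 1.48-fold over OM (1.11 to 1.99) and 1.44-fold over NM (1.06 to 1.96). The other ACACA probe (chr17:32761350-32761409) gave 117 a.u. in OM, 119 a.u. in MB and 82.1 a.u. in NM. On this probe MB was 1.04-fold over OM (0.775 to 1.40), so the difference between MB and OM was seen with 1 of the 2 ACACA probes.

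FASN, the synthase itself, had the widest spread between MB and NM. Its single probe (chr17:77630768-77631358, hg17, minus strand) gave 544 a.u. in OM, 856 a.u. in MB and 315 a.u. in NM. The order of the populations was MB, then OM, then NM, and no pair was within the error range. MB was 1.61-fold over OM (1.22 to 2.13) and 2.44-fold over NM (1.84 to 3.23), and NM was 0.660-fold of OM (0.498 to 0.874). FASN was the only member whose brightest probe passed 2-fold in any comparison, and it held that call under each alternative scaling and background correction that was tried. With a single probe, the alternatives in probe choice could not change it.

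SCD, the stearoyl-CoA desaturase, behaved alike on its 3 probes. The brightest probe (chr10:102113907-102113966, hg17, plus strand) gave 8180 a.u. in OM, 13206 a.u. in MB and 10922 a.u. in NM. The second probe (chr10:102110682-102110741) gave 1514 a.u., 2904 a.u. and 2236 a.u. in the same order. The third (chr10:102097940-102097999) gave 87.5 a.u., 171 a.u. and 135 a.u. On all 3 probes OM was the lowest population, with MB over OM at 1.65-fold (1.25 to 2.18), 1.96-fold (1.49 to 2.59) and 2.00-fold (1.49 to 2.69). NM stayed near MB, with ratios of MB over NM of 1.08-fold (0.822 to 1.43), 1.17-fold (0.883 to 1.54) and 1.14-fold (0.848 to 1.52), all within the error range. NM was therefore above OM, by 1.52-fold (1.15 to 2.01), 1.68-fold (1.28 to 2.22) and, on the third probe, 1.76-fold, with an upper limit of 2.39-fold and a lower limit that also stayed above 1-fold.

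On the brightest probe of each gene, the pair of polyunsaturated fatty acid desaturases had the highest ratios of MB over OM; the third SCD probe was as high as FADS2, and the second FADS2 probe was lower. FADS1 gave 13988 a.u. in OM, 25913 a.u. in MB and 15151 a.u. in NM on its brighter probe (chr11:61326148-61326207, hg17, minus strand). On its other probe (chr11:61323702-61323761) it gave 11250 a.u., 21117 a.u. and 16719 a.u. The probes were alike for MB over OM, at 1.90-fold (1.44 to 2.50) and 1.92-fold (1.46 to 2.53). They parted in NM: MB over NM was 1.53-fold (1.16 to 2.03) on the first and 1.13-fold (0.859 to 1.50) on the second, and NM over OM was 1.23-fold (0.936 to 1.63) on the first and 1.69-fold (1.28 to 2.24) on the second. FADS1 in NM therefore lay near OM by one probe and near MB by the other.

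FADS2 gave 1620 a.u. in OM, 3153 a.u. in MB and 1754 a.u. in NM (chr11:61391330-61391389, hg17, plus strand). MB was 1.99-fold over OM (1.51 to 2.63), just short of 2-fold, and 1.61-fold over NM (1.22 to 2.13). A dim second probe (chr11:61381512-61381571) gave 48.6 a.u., 67.9 a.u. and 52.5 a.u., with MB over OM at 1.43-fold (1.01 to 2.02). MB over NM on that probe was 1.16-fold (0.799 to 1.69), within the error range.

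Of the elongases, ELOVL6 showed little difference and the 2 probes of ELOVL5 disagreed. ELOVL6 gave 1265 a.u. in OM, 1158 a.u. in MB and 1138 a.u. in NM (chr4:111328775-111328834, hg17, minus strand), and its 3 ratios lay between 0.913-fold and 1.03-fold, all within the error range. ELOVL5 gave 7033 a.u. in OM, 8512 a.u. in MB and 6854 a.u. in NM on its brighter probe (chr6:53240845-53240904, hg17, minus strand), with MB over OM at 1.24-fold (0.938 to 1.63). Its second probe (chr6:53264718-53268455), far dimmer, gave 103 a.u., 70.3 a.u. and 111 a.u. and ran the other way, with MB at 0.696-fold of OM (0.511 to 0.948) and 0.569-fold of NM (0.415 to 0.780). No direction can be given for ELOVL5.

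The acyl-CoA synthetases differed from each other. ACSL1 gave 4891 a.u. in OM, 8402 a.u. in MB and 4766 a.u. in NM (chr4:186051881-186051894, hg17, minus strand). MB stood above both monolayers, by 1.76-fold over OM (1.33 to 2.32) and 1.58-fold over NM (1.20 to 2.09), and NM was back at 1.11-fold of OM (0.842 to 1.47). ACSL3, which sits on the endoplasmic reticulum and on nascent lipid droplets, was lower in MB than in OM on both probes. The brighter probe (chr2:223624777-223624836, hg17, plus strand) gave 23592 a.u. in OM, 15929 a.u. in MB and 12087 a.u. in NM, and the other (chr2:223633000-223633059) gave 10619 a.u., 4756 a.u. and 9700 a.u. MB was 0.691-fold of OM (0.523 to 0.911) on the first and 0.458-fold (0.347 to 0.605) on the second. In NM the probes disagreed. By the first, ACSL3 in NM was 0.584-fold of OM (0.443 to 0.771), and by the second it was 1.04-fold (0.789 to 1.37). MB over NM was 1.18-fold (0.896 to 1.56) on the first, within the error range, and 0.440-fold (0.333 to 0.581) on the second. The reason for the disagreement was not tested.

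**Figure D1:**
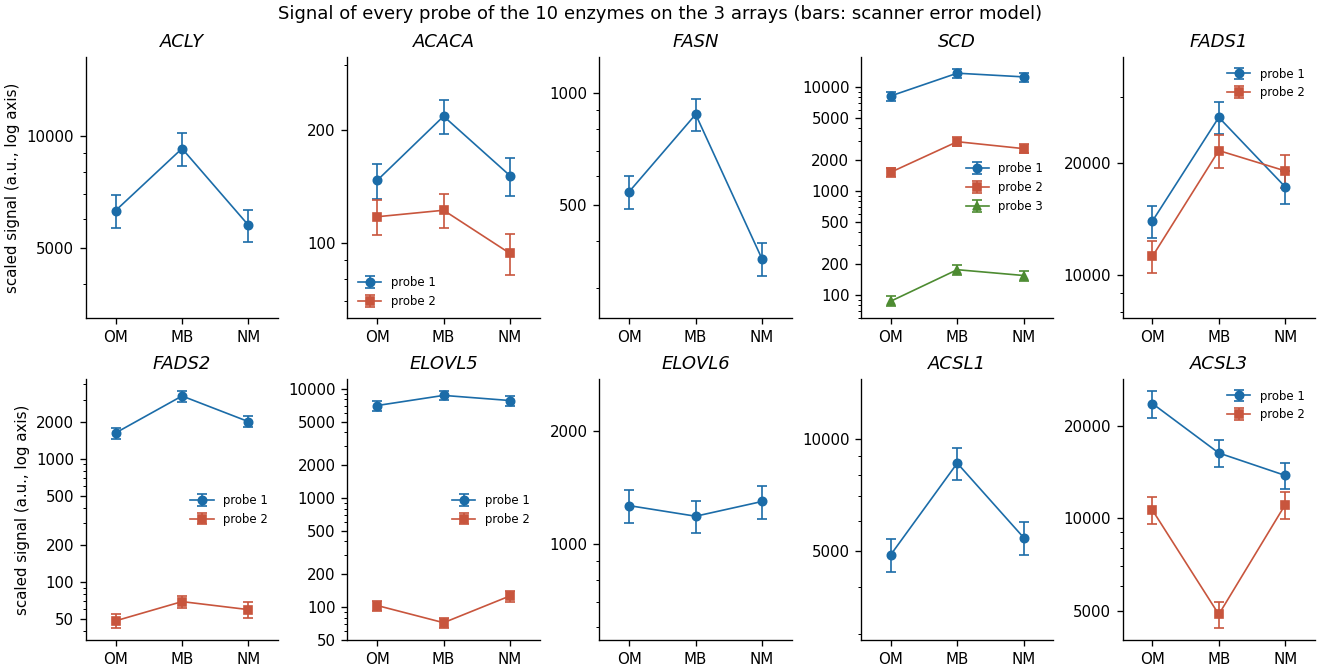
Scaled signal (a.u., log axis) of each probe of the 10 enzymes in OM, MB and NM. Points are single arrays, bars are the scanner software's error, and lines join the values of 1 probe. MB is the highest population on every probe of ACLY, ACACA, FASN, SCD, FADS1, FADS2 and ACSL1, though not always past the error range. OM is the lowest on every probe of SCD, FADS1, FADS2 and ACSL1. Among these, NM is above OM past the error range only on the SCD probes and the dimmer FADS1 probe. The paired probes of ELOVL5 and ACSL3 take different courses.

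**Figure D2:**
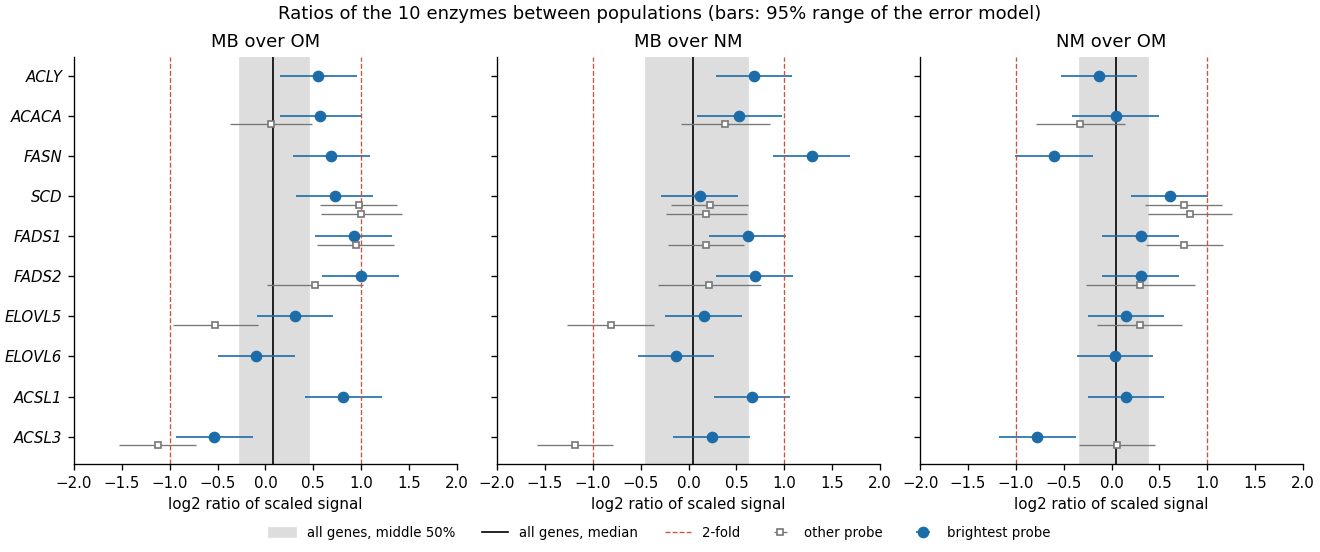
Log2 ratio of scaled signal for MB over OM, MB over NM and NM over OM. Filled circles are the brightest probe of each enzyme and open squares its other probes, with the 95% range of the error model; the grey band holds the middle 50% of all 22406 measured genes and dashed lines mark 2-fold. In MB over OM, 7 of the 10 enzymes lie right of the grey band and ACSL3 lies left of it.

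The alternatives in scaling, background correction, probe and filter moved some of these ratios across 0. In MB over OM, ELOVL5 changed sign, with its other probe and with the mean of both. In MB over NM, SCD, ELOVL5, ELOVL6 and ACSL3 did, and in NM over OM, ACACA, ELOVL5, ELOVL6, ACSL1 and ACSL3 did. ACLY, FASN, FADS1 and FADS2 kept their sign in all 3 comparisons under the 14 alternatives. For ACLY and FASN, with a single probe each, the alternatives in probe choice could not change the value. FASN ranged from 0.38 to 0.73 on the log2 scale over OM and from 1.08 to 1.45 over NM.

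**Figure D3:**
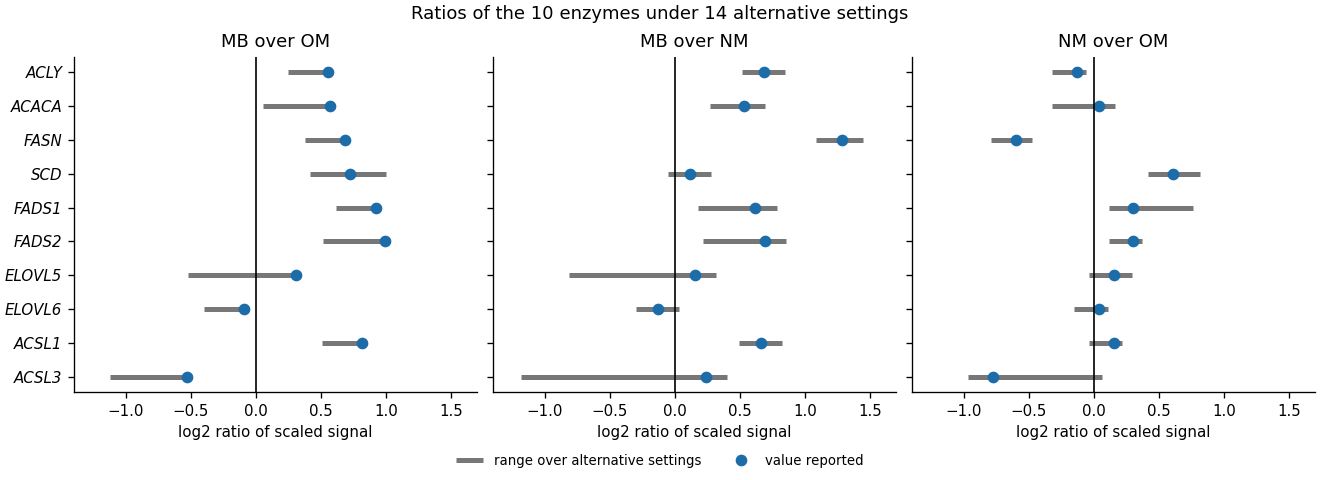
Log2 ratio of scaled signal of the 10 enzymes in each comparison. Points are the reported values and grey bars the range over 14 alternative settings. The bars of ACLY, FASN, FADS1 and FADS2 stay on 1 side of 0, and the longest bars, for ELOVL5 and ACSL3, reach to the value of the other probe.

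The bases just before the start of these genes were looked at next, since most members were higher together. RefSeq windows (GRCh38.p14) were found for 9 of the 10 genes, with 17 starts in all, and FASN had no entry. The 250 bases before each start were searched on both strands for the SREBP consensus TCACNCCAC, the CCAAT box bound by NF-Y (CCAAT), the GC box bound by Sp1 (GGGCGG) and the E-box CACGTG. NF-Y and Sp1 are known partners of SREBPs on lipogenic promoters. As examples, 1 window each of SCD, ACLY and ACSL1, which were higher in MB, and of ACSL3, which was lower, is shown. They do not stand for all members: the windows of FADS1 and FADS2, also higher in MB, hold no CCAAT box. The bases run from 5′ to 3′ on the strand of the gene, with every match to 1 of the 4 motifs in capitals.
SCD (chr10:100346983-100347232, plus strand): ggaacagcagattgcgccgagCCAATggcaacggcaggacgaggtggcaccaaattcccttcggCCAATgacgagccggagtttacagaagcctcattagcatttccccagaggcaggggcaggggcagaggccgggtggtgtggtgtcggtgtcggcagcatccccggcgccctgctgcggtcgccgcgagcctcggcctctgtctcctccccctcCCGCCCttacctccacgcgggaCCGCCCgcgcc
ACLY (chr17:41919023-41919272, minus strand): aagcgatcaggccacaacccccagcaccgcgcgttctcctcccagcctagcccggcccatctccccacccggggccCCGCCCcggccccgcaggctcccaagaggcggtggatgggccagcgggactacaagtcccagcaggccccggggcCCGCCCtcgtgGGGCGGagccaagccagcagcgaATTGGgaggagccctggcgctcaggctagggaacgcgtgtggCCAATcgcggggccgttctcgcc
ACSL1 (chr4:184825969-184826218, minus strand): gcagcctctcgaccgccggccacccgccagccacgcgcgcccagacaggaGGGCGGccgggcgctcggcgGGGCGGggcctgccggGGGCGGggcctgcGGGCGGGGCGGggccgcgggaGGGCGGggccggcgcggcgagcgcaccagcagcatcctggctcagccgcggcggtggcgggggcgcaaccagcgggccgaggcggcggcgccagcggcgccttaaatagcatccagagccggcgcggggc
ACSL3 (chr2:222860786-222861035, plus strand): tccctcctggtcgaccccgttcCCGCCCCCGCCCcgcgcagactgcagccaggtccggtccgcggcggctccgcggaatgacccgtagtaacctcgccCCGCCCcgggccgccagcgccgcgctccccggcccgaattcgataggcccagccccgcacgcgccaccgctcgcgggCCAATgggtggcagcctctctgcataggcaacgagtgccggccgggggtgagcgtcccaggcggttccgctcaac

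SCD holds 2 CCAAT boxes and 2 GC boxes in this window, ACLY holds 2 CCAAT boxes and 3 GC boxes, and ACSL3 holds 1 CCAAT box and 3 GC boxes. ACSL1 at this start holds 6 GC boxes and no CCAAT box. The CCAAT box was found in 6 of the 9 genes (ACLY, ACACA, SCD, ELOVL5, ACSL1 and ACSL3) and in 8 of the 17 windows, or 47.1%, against 32.0% of all 35116 windows. The GC box was found in 8 of the 9 genes, all but ELOVL5, and in 64.7% of windows against 42.6% of all. The SREBP consensus was matched at 1 of the 5 ACSL1 starts only, which is not the start shown, and 0.883% of all windows match. The E-box was matched in ELOVL5 only, where 6.35% of all windows match. Windows of the same gene can overlap. ACSL3 carries the same letters as SCD and ACLY, and the motifs did not separate it from them. A match is a run of letters and does not show binding.

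The genes around these enzymes were described from lists in the same way, with counts and medians taken over the brightest probe of each gene. Among 9 genes that supply precursors and NADPH, 7 were higher in MB than in OM, with a median log2 ratio of 0.52. ACSS2, which makes acetyl-CoA from acetate, gave 6630 a.u. in OM, 17922 a.u. in MB and 2747 a.u. in NM, which was 2.77-fold over OM and 5.85-fold over NM. A second ACSS2 probe had a log2 ratio of 0.12 over OM and 1.06 over NM, so the higher level against NM was seen with both probes and that against OM with 1. MLYCD, which removes malonyl-CoA, was 2.15-fold over OM and 2.27-fold over NM, and its second probe gave log2 ratios of 1.24 and 1.69. The 2 genes were the members of that list past 2-fold against both monolayers on the brightest probe; 5.38% of all genes passed against OM and 10.9% against NM.

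The list of other elongation and desaturation enzymes stayed near the median of all genes, with a median log2 ratio of 0.12 over OM and 0.06 over NM among 11 measured. Its sign turned with spike-in scaling, to -0.18 and -0.11. ELOVL7 was its only gene past 2-fold against both monolayers, at 189 a.u. in OM, 79.2 a.u. in MB and 320 a.u. in NM, with log2 ratios of -1.22 and -2.17. A 2-fold lower signal in MB was found in 3.36% of all genes against OM and in 8.22% against NM. Among other acyl-CoA synthetases the median log2 ratio was 0.15 over the 9 genes with a ratio against OM. Spike-in scaling turned it to -0.15. Over the 8 with a ratio against NM it was 0.59, about as high as the 0.57 of the 10 enzymes. In each comparison 2 of them passed 2-fold, where 5.38% and 10.9% of all genes did. ACSS1, the mitochondrial acetate enzyme, gave 15427 a.u. in OM, 31743 a.u. in MB and 11239 a.u. in NM, 2.10-fold and 2.53-fold. Its second probe gave log2 ratios of 1.46 over OM and 1.50 over NM, and the dimmest probe, at 368 a.u., 453 a.u. and 94.8 a.u., gave 0.33 and 2.10. ACSBG1 was well above background in MB alone, at 140 a.u. The bound was at least 6.83-fold against OM, and against NM it was at least 4.30-fold. On their brightest probes the 5 genes of mitochondrial fatty acid synthesis were lower in MB than in OM and NM, with median log2 ratios of -0.22 and -0.48, and 1 of the 5 turned higher with another scaling. MCAT, whose brighter probe gave -0.57 and -1.54, had a second probe at 0.57 and 0.55, so no direction can be given for it.

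The lipogenic regulators did not move as 1 group. SREBF1, whose product drives fatty acid synthesis genes, gave 79032 a.u. in OM, 36172 a.u. in MB and 90290 a.u. in NM. It was lower in MB, with a log2 ratio of -1.09 against OM and -1.48 against NM, and its other probe gave -1.25 and -1.41. SREBF2, whose product drives sterol synthesis, gave 5096 a.u. in OM, 14336 a.u. in MB and 8050 a.u. in NM, 2.88-fold over OM and 1.60-fold over NM. SREBF1 was thus lowest and SREBF2 highest in the population where 7 of the 10 enzymes were above OM.

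INSIG1, which holds SREBPs in the endoplasmic reticulum and is itself an SREBP target, was 2.61-fold over OM and 1.65-fold over NM. SCAP, the SREBP escort, was 1.46-fold over OM and 1.43-fold over NM. INSIG2 had log2 ratios of 0.17 and -0.26. MLXIPL, a glucose-responsive factor, had log2 ratios of -0.30 and -0.51. On 2 dimmer probes it was at 0.95 and 1.18 over OM, so MLXIPL has no settled direction there. MLX, its partner, had 0.67 and 0.58 on the brightest of 3 probes. The next MLX probe gave 0.06 and 0.18, and the dimmest gave 0.85 and 0.77. The liver X receptor genes gave 0.19 and -0.65 for NR1H2 and -0.20 and -0.36 for NR1H3. THRSP was at or near background, at 10.4 a.u. in OM and 23.4 a.u. in MB. MID1IP1, a relative of THRSP whose product activates acetyl-CoA carboxylase, gave 2093 a.u. in OM, 881 a.u. in MB and 2864 a.u. in NM, with log2 ratios of -1.21 and -1.86.

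The lists of genes that use or burn fatty acids had medians near that of all genes, with single genes well to both sides. Over NM, 4 of the 19 oxidation genes were 2-fold higher in MB, where 10.9% of all genes were. Of the same 19, 1 was 2-fold lower, where 8.22% of all genes were. In the 13 measured genes of glycerolipid synthesis the median log2 ratio was 0.05 over OM and 0.22 over NM, and none passed 2-fold against both monolayers on its brightest probe. PCYT2, of phosphatidylethanolamine synthesis, had log2 ratios of 0.80 and 0.83 on that probe, and its second probe, at 286 a.u. in OM, 1262 a.u. in MB and 136 a.u. in NM, gave 2.18 and 3.06; PCYT2 and MCAT were singled out after their values were seen. Among lipid droplet and lipolysis genes the medians were 0.10 over the 10 with a ratio against OM and -0.02 over the 9 with a ratio against NM, and again none passed against both. Among 19 genes of fatty acid oxidation the medians were 0.18 and 0.00. CPT1A, the gate for entry of fatty acids into mitochondria and the target of malonyl-CoA, gave 393 a.u. in OM, 1006 a.u. in MB and 330 a.u. in NM, 2.62-fold over OM and 2.74-fold over NM. PPARGC1A, a coactivator of oxidative genes, was dim at 31.05 a.u., 161 a.u. and 60.3 a.u., with log2 ratios of 2.40 and 1.26. The signs of the medians against OM in these 3 lists turned with spike-in scaling, to -0.26, -0.21 and -0.13.

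In the list of fatty acid uptake and binding genes, both lipoprotein-side genes were far lower in MB. LPL, the secreted lipoprotein lipase, gave 3082 a.u. in OM, 395 a.u. in MB and 3151 a.u. in NM, 7.62-fold lower than in OM and 8.89-fold lower than in NM. VLDLR, a receptor for triglyceride-rich particles, gave 657 a.u., 190 a.u. and 1414 a.u., 3.39-fold and 8.31-fold lower. The 20 sterol synthesis genes were all higher in MB than in each monolayer, with a median log2 ratio of 1.45 in both comparisons. With spike-in scaling 19 of them stayed higher than in OM. Against OM and NM, 17 and 14 of them passed 2-fold, where 5.38% and 10.9% of all genes did. For the 10 fatty acid enzymes the medians were 0.63 and 0.57 and the counts were 0 and 1.

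**Figure D4:**
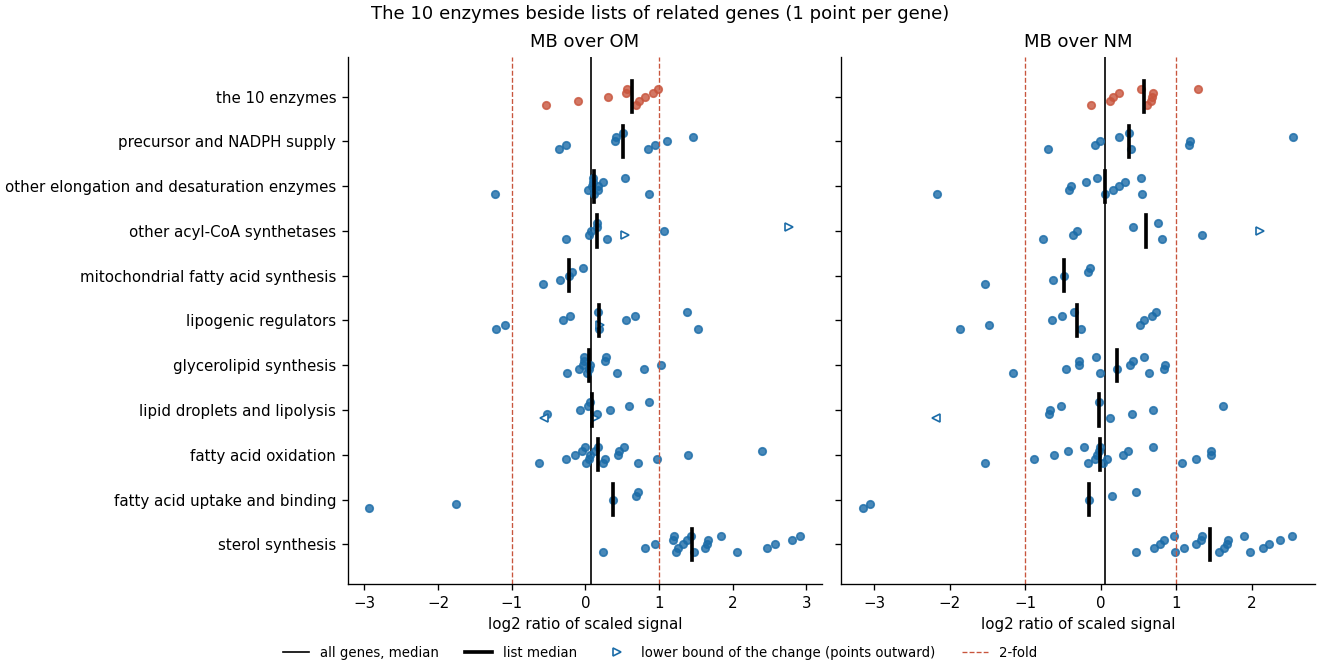
Log2 ratio of scaled signal for MB over OM and MB over NM in the 10 enzymes (red) and in 10 lists of related genes (blue), 1 point per gene. Thick bars are list medians, the thin line is the median of all measured genes, and open triangles are lower bounds. The 10 enzymes sit near 0.6, sterol synthesis sits near 1.45, and LPL and VLDLR lie far to the left in the list of uptake and binding genes.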

How the data were processed

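Total RNA of 3 populations was measured on 3 one-colour arrays. The authors deposited spot intensity values for all arrays, extracted with Feature Extraction 9.5.3.1 per the file headers: local background was subtracted, low values were replaced by a surrogate, and the scale is linear, in a.u. The value table that was also deposited holds the same numbers (130128 of 130128 within 0.1%). No scaling between arrays had been applied. Control spots and outlier spots were left out, replicate spots of 1 probe were averaged, and signals were scaled so that the arithmetic mean of GAPDH, ACTB and HSP90AA1 was equal on all arrays. The probe that was brightest on average stood for its gene. All 17 member probes were well above background on all 3 arrays and none was saturated. Array names were updated to current symbols through RefSeq accessions (23434 probes) or by symbol or synonym (2317 and 1043), and 14206 kept the array's name. A 2-fold call needed the brighter array above 100 a.u. unscaled; where 1 array was not well above background, the bound uses the lowest well-above-background signal. With 1 array per population there is no test, and precision is bounded by having single arrays. The members, gene lists and call rules were chosen with earlier results of these data known. From companion lists, genes past 2-fold against both monolayers were named, up to 4 a list, and every lipogenic regulator, and of sterol synthesis only counts and the median. Probe coordinates are those of the array files (hg17); which exon or intron a probe lies in was not analysed here. Code was tested on simulated data. Python 3.11.15 with pandas 2.3.3 and numpy 2.4.6, and limma 3.58.1 in R 4.3.3 for the normexp alternative, were used.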

Additional observations from a re-analysis of the deposited data

How the results depend on the processing

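The alternatives, changed one at a time, were other scalings (75th percentile, quantile, none, spike-ins, geometric mean, other housekeeping genes), other background handling, other probe choices, outlier spots kept, the deposited value table, other filters and 5-fold. Bright genes as the background were added after seeing the data. No paired analysis was possible because each population was hybridised to 1 array, and no array could be left out for the same reason. The count of members 2-fold higher in MB than OM went from 0 to 1 with ACTG1, LDHA and VIM for scaling and with the dimmest probe of each gene. The count over NM went from 1 to 0 at 5-fold. The count past the error range went from 7 to 4 over OM with spike-in scaling and from 6 to 3 over NM with the dimmest probe. The 3 left over NM have a single probe, so that setting could not change them. The median of the members above that of all genes was 0.54 for MB over OM, and moved to 0.45 with the dimmest probe and to 0.66 with no filter. For MB over NM it was 0.52, and moved to 0.35 with the mean over probes, 0.12 with the dimmest probe and 0.71 with no filter. For NM over OM it was 0.05 and turned to -0.0875 with no filter and to -0.0244 against bright genes. ACSL3 in NM over OM turned from -0.78 to 0.0583 with the dimmest probe, which is its other probe. Spike-in scaling lowered every ratio of MB over OM by 0.31 on the log2 scale and took the median of all genes to -0.22; the 7 enzymes above the error range stayed above 0, between 0.25 and 0.69. Of 420 single values of members, 263 moved by less than the SD of a single-spot log2 ratio, 156 moved by more, and 1 turned from a called direction. Part of the 263 could not move. The filters do not enter a single ratio, the deposited value table holds the same numbers, and genes with 1 probe have no other probe. The share of 263 in 420 therefore does not measure stability. The cause of each change was not tested.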
